A study of Mus musculus with 8 samples.

Results

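The Hox genes of clusters A to D were measured in 8 colonic tumors of mice. Members were the genes of a single probe set annotation symbol made of Hox, a cluster letter and a number, and 37 of the 19938 genes with a single symbol qualified. Clusters A, B, C and D held 10, 9, 9 and 9 of them, each read by 1 probe set. Hoxb8 was named only together with Hoxb7 on a shared probe set and was not counted.

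The tumors fell into 3 groups by genotype. The K-rasG12D AOM group (3 arrays) held tumors induced with azoxymethane (AOM), a colon carcinogen, in the distal colon of mice of genotype K-rasG12Dint. The LSL AOM group (2 arrays) held AOM-induced distal tumors of LSL-K-rasG12D/+ mice, whose titles read wt. LSL is short for lox-stop-lox, which keeps an allele silent until a recombinase has cut the stop out. The serrated group (3 arrays) held serrated tumors of the proximal colon of K-rasG12Dint mice that also lacked Ink4a/Arf, a tumor suppressor locus. All 3 genotype labels thus name a K-rasG12D allele, and the labels do not name the recombinase, its promoter or the ages of the mice. Serrated histology, proximal position, absence of AOM from the sample title and loss of Ink4a/Arf went together. They cannot be told apart in any comparison of serrated with AOM tumors. Where LSL tumors took part, alone or in the AOM average, the K-ras label differed as well. No normal colon was measured, so higher and lower always mean between tumors.

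Hox genes encode homeodomain transcription factors that give cells along the body axis and the gut their position. They lie in 4 clusters in which genes are numbered by paralog group from the 3′ to the 5′ end, and genes nearer the 5′ end are as a rule switched on later and further towards the tail. In the gut, genes of the last paralog groups mark the hindgut, in epithelium as well as in the mesenchyme around it, and the highest-numbered ones mark its most distal part. Genes are grouped here as anterior (paralog groups 1 to 3, 7 genes measured), central (4 to 8, 14 genes) and posterior (9 to 13, 16 genes).

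In serrated tumors 5 of the 37 genes fell relative to the AOM tumors and 0 rose, and all 5 were posterior. They were Hoxd13, Hoxd11 and Hoxd10 of cluster D and Hoxb13 and Hoxb9 of cluster B. Hoxd13, the last gene of its cluster and a regulator of digit and hindgut development, fell by 4.85 on the log2 scale, and Hoxb13, known from prostate and distal gut, by 3.17. Of the 21 anterior and central genes, 0 passed in either direction. Only 20 of the 37 genes lay above the dimmest 40% of genes, and 10 of those were posterior. In a dim gene there is little room for a fall to be measured. Across all genes tested, 5.76% fell and 3.62% rose in this comparison. At an unadjusted p under 0.05 there were 12 of the 37, beside 24.7% of all genes. A gene passed when its Benjamini-Hochberg adjusted p over all genes was under 0.05 in limma. The model held 1 mean per group and used all 8 arrays, and the serrated mean was set against the average of both AOM group means.

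The stretches before the starts of neighbouring 5′ genes of cluster D are shown because 3 of these 4 genes fell while the other, Hoxd12, a dim gene lying between Hoxd13 and Hoxd11, did not pass. Each is the 250 bases before an annotated start on the plus strand, written 5′ to 3′, from RefSeq on GRCm38.p6, and the capitals mark the palindromic E-box CACGTG. Hoxd13 is taken from chr2:74667975-74668224, Hoxd12 from chr2:74674763-74675012, the second of 2 annotated starts of Hoxd11 from chr2:74682073-74682322 and Hoxd10 from chr2:74691641-74691890.
Hoxd13: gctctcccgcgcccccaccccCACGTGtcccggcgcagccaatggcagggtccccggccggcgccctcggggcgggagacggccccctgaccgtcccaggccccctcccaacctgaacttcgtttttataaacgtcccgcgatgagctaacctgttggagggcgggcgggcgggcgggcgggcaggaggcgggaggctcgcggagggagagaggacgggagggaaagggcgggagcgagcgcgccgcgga
Hoxd12: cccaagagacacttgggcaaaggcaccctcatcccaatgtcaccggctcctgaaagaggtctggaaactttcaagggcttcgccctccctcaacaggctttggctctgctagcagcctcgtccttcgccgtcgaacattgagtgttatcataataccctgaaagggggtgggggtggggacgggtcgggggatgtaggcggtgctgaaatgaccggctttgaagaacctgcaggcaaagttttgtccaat
Hoxd11: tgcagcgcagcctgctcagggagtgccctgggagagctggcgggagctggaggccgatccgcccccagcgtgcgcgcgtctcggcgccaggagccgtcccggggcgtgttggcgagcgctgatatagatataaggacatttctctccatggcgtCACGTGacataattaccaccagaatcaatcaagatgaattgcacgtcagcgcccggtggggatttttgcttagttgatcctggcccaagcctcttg
Hoxd10: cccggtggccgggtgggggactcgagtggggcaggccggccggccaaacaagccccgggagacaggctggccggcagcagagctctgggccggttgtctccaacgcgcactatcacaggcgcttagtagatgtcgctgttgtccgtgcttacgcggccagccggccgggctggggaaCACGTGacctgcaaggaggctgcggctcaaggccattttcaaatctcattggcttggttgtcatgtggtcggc

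The E-box stood at bases 229 to 224 before the start in Hoxd13, 96 to 91 in Hoxd11 and 73 to 68 in Hoxd10, and these letters were not in the Hoxd12 window or in the window of the other Hoxd11 start. Of the 37 genes, 21 had a promoter in the RefSeq table, in 23 windows, and Hoxb13 and Hoxb9 were not among them. CACGTG was found in 4 of the 23 windows, those of Hoxd13, Hoxd11, Hoxd10 and Hoxd1, and in 6.02% of all 32851 promoter windows. Hoxd1, at the other end of the cluster, did not pass in any comparison. Of 4 motifs searched on both strands, ATCAAAG, a TCF/LEF motif, was found in 1 Hox window (Hoxd8, 3.21% of all windows), CAATAAA, a motif of Cdx factors, in 0 (4.20%), and TATAAA in 3 (Hoxd13, Hoxd4 and Hoxa10, 12.4%). CACGTG was added after the sequences were read, and a match is a description of the letters only. The Hoxd13, Hoxd11 and Hoxd10 windows shown held 31, 20 and 20 CG dinucleotides, the Hoxd12 window 10 and the window of the other Hoxd11 start 2. Over all promoter windows the median was 6 and the upper quartile 16. Windows of Hox genes that did not pass against the AOM average ran from 3 in Hoxa9 and Hoxd4 to 35 in Hoxa13. Among them Hoxa5 held 28, and Hoxa6 and Hoxd1 24 each, so the count did not set apart the genes that fell.

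Values below are RMA signals (robust multi-array average) on a log2 scale, so that a difference of 1 is a 2-fold change. They are comparable between arrays for a gene and not between genes. Hoxd13 stood at 8.51, 7.20 and 7.59 in K-rasG12D AOM, 8.37 and 7.27 in LSL AOM, and 3.15, 3.03 and 2.65 in serrated tumors. Every serrated array lay more than 4 units below every AOM array. The means were 7.79 ± 0.61 (SD, n = 5) and 2.94 ± 0.26 (SD, n = 3), with a difference of -4.85 ± 0.34 (SE, limma adjusted p = 0.000206). The serrated values lie below 3.58, the level under which the dimmest 40% of genes fall, so the size of the fold is uncertain.

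Hoxd11, a regulator of limb, kidney and axial patterning, stood at 6.14, 5.32 and 6.29 in K-rasG12D AOM, 5.88 and 5.86 in LSL AOM, and 4.08, 4.18 and 4.16 in serrated tumors. The serrated values were close together, with a mean of 4.14 ± 0.05 (SD, n = 3), and lay below all AOM values. The difference was -1.75 ± 0.22 (SE, limma adjusted p = 0.00259). Hoxd10, its neighbour, stood at 5.97, 4.84 and 5.54, then 5.73 and 5.40, and then 3.82, 3.29 and 4.38 in the same order of groups. The serrated values spread more here (SD 0.54, n = 3) and still lay below all AOM values. The difference was -1.68 ± 0.31 (SE, limma adjusted p = 0.0128), and it did not pass without serrated replicate 2 (adjusted p = 0.0625) or LSL replicate 1 (0.0557). The gene models of Hoxd11 and Hoxd10 overlap in RefSeq on GRCm38.p6, and a part of 1 transcript in the signal of both was not tested. Of 6 overlapping pairs, the others were Hoxa3 with each of Hoxa4, Hoxa5 and Hoxa6, Hoxb3 with Hoxb4, and Hoxd3 with Hoxd4.

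Hoxd12 stood at 3.75, 3.06 and 3.64 in K-rasG12D AOM, 3.07 and 3.23 in LSL AOM, and 3.57, 3.53 and 3.17 in serrated tumors. The groups overlapped in this gene, and it belonged to the dimmest 40% of genes. Its difference was 0.11 with a 95% confidence interval from -0.34 to 0.56. Hoxd9, next to Hoxd10 on the other side, stood at 3.84, 3.76 and 3.70, then 4.0 and 3.86, and then 3.9, 3.84 and 3.94, again with overlap. The other 4 measured genes of cluster D, Hoxd1, Hoxd3, Hoxd4 and Hoxd8, ran from 2.53 to 3.81 over all arrays and were all dim. Hoxd4 and Hoxd8 differed by 0.59 ± 0.18 (SE, adjusted p = 0.0808) and 0.52 ± 0.19 (0.135) in limma, and neither passed. In Hoxd4 every serrated array lay above every AOM array, as it did in 7.24% of all genes. Hoxd4 was the highest and Hoxd13 the lowest difference of the cluster.

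**Figure D1:**
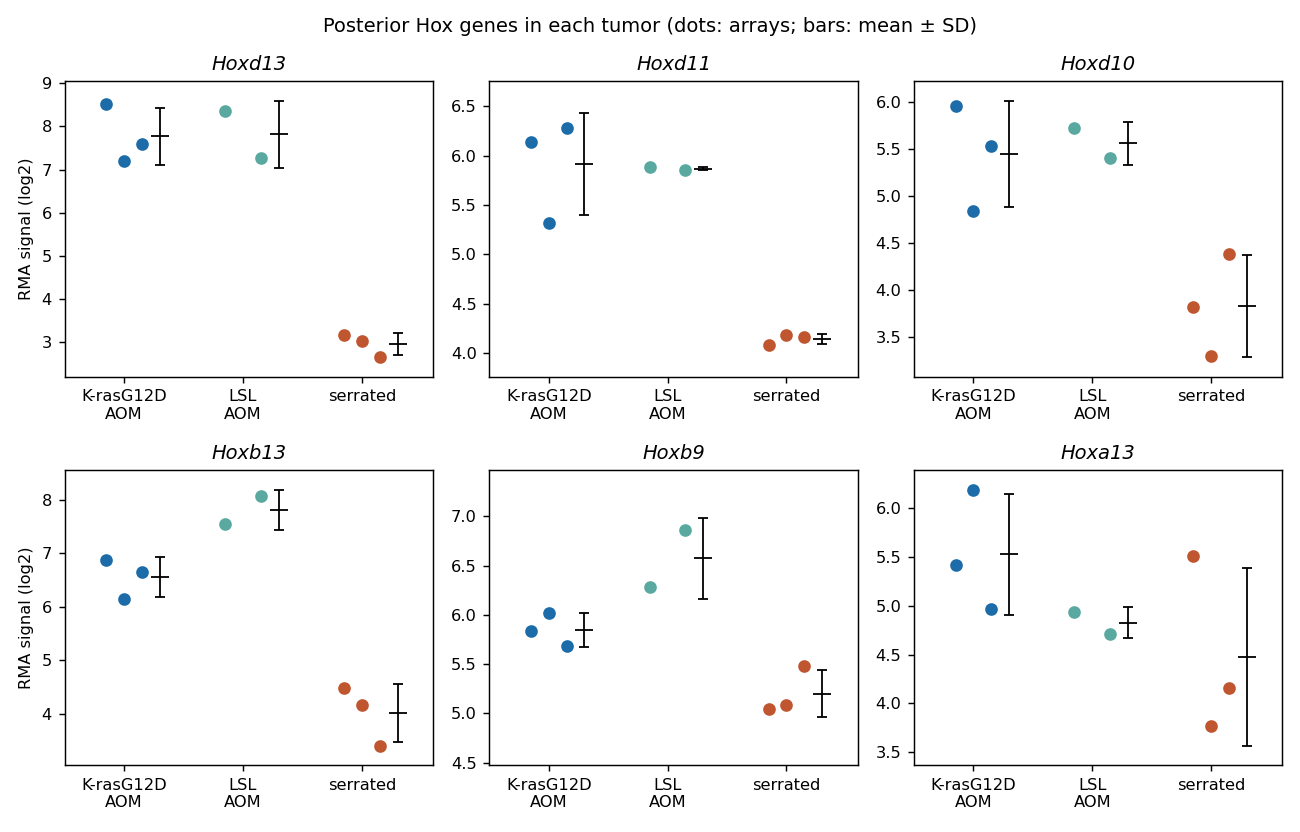
Log2 RMA signal (y axis, scaled separately in each panel) of 6 posterior Hox genes in the 3 tumor groups (x axis). Dots are single arrays and the black bars give mean ± SD (n = 3, 2 and 3). In the first 5 genes all serrated dots lie below all AOM dots, while in Hoxa13 the groups overlap.

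In cluster B, Hoxb13 stood at 6.87, 6.14 and 6.64 in K-rasG12D AOM, 7.54 and 8.08 in LSL AOM, and 4.47, 4.16 and 3.40 in serrated tumors. The 3 groups formed separate ranges, lowest in serrated and highest in LSL tumors. The serrated tumors differed from the AOM tumors by -3.17 ± 0.28 (SE, limma adjusted p = 0.000579). Hoxb9 followed the same order with smaller gaps, at 5.83, 6.02 and 5.69, then 6.28 and 6.87, and then 5.04, 5.08 and 5.48. Its difference was -1.01 ± 0.19 (SE, limma adjusted p = 0.0144), and it did not pass without serrated replicate 2 (adjusted p = 0.0774) or LSL replicate 2 (0.0506). Over all genes, 8.93% had every serrated array below every AOM array, and 5 of the 37 Hox genes did, the same 5 that passed. The SD of Hoxb13 over the 5 AOM arrays was 0.76, beside 0.37 within the K-rasG12D group and 0.38 within the LSL group.

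The 7 other measured genes of cluster B, Hoxb1 to Hoxb7, lie on the 3′ side of Hoxb9, and none of them passed. Their differences ran from 0.07 in Hoxb2 to 0.88 in Hoxb5, which stood at 4.71, 3.55 and 4.29 in K-rasG12D AOM, 2.42 and 3.47 in LSL AOM, and 3.91, 4.96 and 4.47 in serrated tumors. The serrated and AOM values of Hoxb5 overlapped, and the difference of 0.88 ± 0.35 (SE) had an adjusted p of 0.163 in limma. Hoxb6, its neighbour, varied widely within groups. Its value was 4.01 on serrated replicate 1 against 6.33 and 6.30 on replicates 2 and 3, and 4.34 on LSL replicate 1 against 5.71 on replicate 2. Hoxb5 and Hoxb6 were both lowest on replicate 1 among the serrated and among the LSL arrays. All 7 genes had differences above 0 as deposited. With quantile normalization 6 of the 9 genes of the cluster were above 0, against 7 as deposited.

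In cluster A none of the 10 genes passed. Hoxa13, which with Hoxd13 patterns the hindgut and the digits, stood at 5.42, 6.19 and 4.97 in K-rasG12D AOM, 4.94 and 4.71 in LSL AOM, and 5.51, 3.77 and 4.16 in serrated tumors. Serrated replicate 1 lay among the AOM values and the other serrated arrays below all of them. The difference was -0.69 ± 0.41 (SE, limma adjusted p = 0.327), with a 95% interval from -1.61 to 0.23, and without serrated replicate 1 it was -1.21 (adjusted p = 0.0438). Hoxa9 behaved alike, at 7.13, 6.97 and 7.02, then 7.31 and 7.07, and then 7.14, 6.08 and 6.31, with a difference of -0.60 ± 0.24 (SE, limma adjusted p = 0.154). Without serrated replicate 1 it was -0.92 (adjusted p = 0.00730). That array also had the narrowest spread over genes, an SD of 1.77 against 2.00 to 2.13 on the other arrays, and the part of this in the 2 genes was not tested. Over the other alternatives both genes passed only with array weights, which gave serrated replicate 1 the lowest weight.

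Hoxa10 stood at 5.29, 5.33 and 4.70 in K-rasG12D AOM, 5.30 and 5.34 in LSL AOM, and 5.24, 5.05 and 5.18 in serrated tumors. Hoxa11 stood at 4.26, 4.94 and 4.31, then 4.04 and 4.0, and then 4.66, 3.77 and 4.62. The groups overlapped in both genes. Of the 6 anterior and central genes of cluster A, Hoxa5, which patterns lung and gut mesenchyme, had the lowest difference at -0.72 ± 0.23 (SE, limma adjusted p = 0.0828), and Hoxa3 the highest at 0.24. Hoxa2, Hoxa4, Hoxa6 and Hoxa7 did not pass either, with values of 2.61 to 3.04, 4.13 to 5.09, 3.23 to 4.03 and 5.22 to 5.84 over all arrays.

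Cluster C stood apart by its dimness. All 9 of its measured genes belonged to the dimmest 40% of genes, against 2 of 10 in cluster A, 1 of 9 in cluster B and 5 of 9 in cluster D. Its values ran from 1.62 to 4.37, which left little room below for a fall to be measured. Hoxc13 stood at 2.47, 2.35 and 2.54 in K-rasG12D AOM, 2.38 and 2.67 in LSL AOM, and 2.94, 2.85 and 2.48 in serrated tumors. Hoxc12 stood at 3.11, 2.76 and 2.91, then 2.72 and 3.05, and then 3.23, 3.39 and 2.63. Hoxc11 stood at 2.24, 2.23 and 2.6, then 1.99 and 2.63, and then 2.28, 2.48 and 2.27. In these 3 genes the groups overlapped throughout. Hoxc10 stood at 2.65, 2.30 and 2.68, then 2.61 and 2.71, and then 2.53, 2.88 and 2.73. Hoxc9 stood at 2.62, 2.65 and 2.72, then 2.73 and 3.15, and then 3.01, 3.06 and 2.84. Both again overlapped between groups. Hoxc8, which acts in trunk patterning, had the highest difference of the cluster at 0.80 ± 0.23 (SE, limma adjusted p = 0.0598), with every serrated array (3.94, 4.37 and 3.49) above every AOM array (2.77 to 3.47). It passed with quantile normalization (0.0397), with each array centred on its median gene (0.0464), with array weights (0.00183) and without serrated replicate 3 (0.0136). Hoxc5 differed by 0.61 ± 0.20 (adjusted p = 0.0935), and Hoxc11 had the lowest difference at 0.01. All 9 differences of cluster C were above 0 as deposited and 6 were with quantile normalization.

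**Figure D2:**
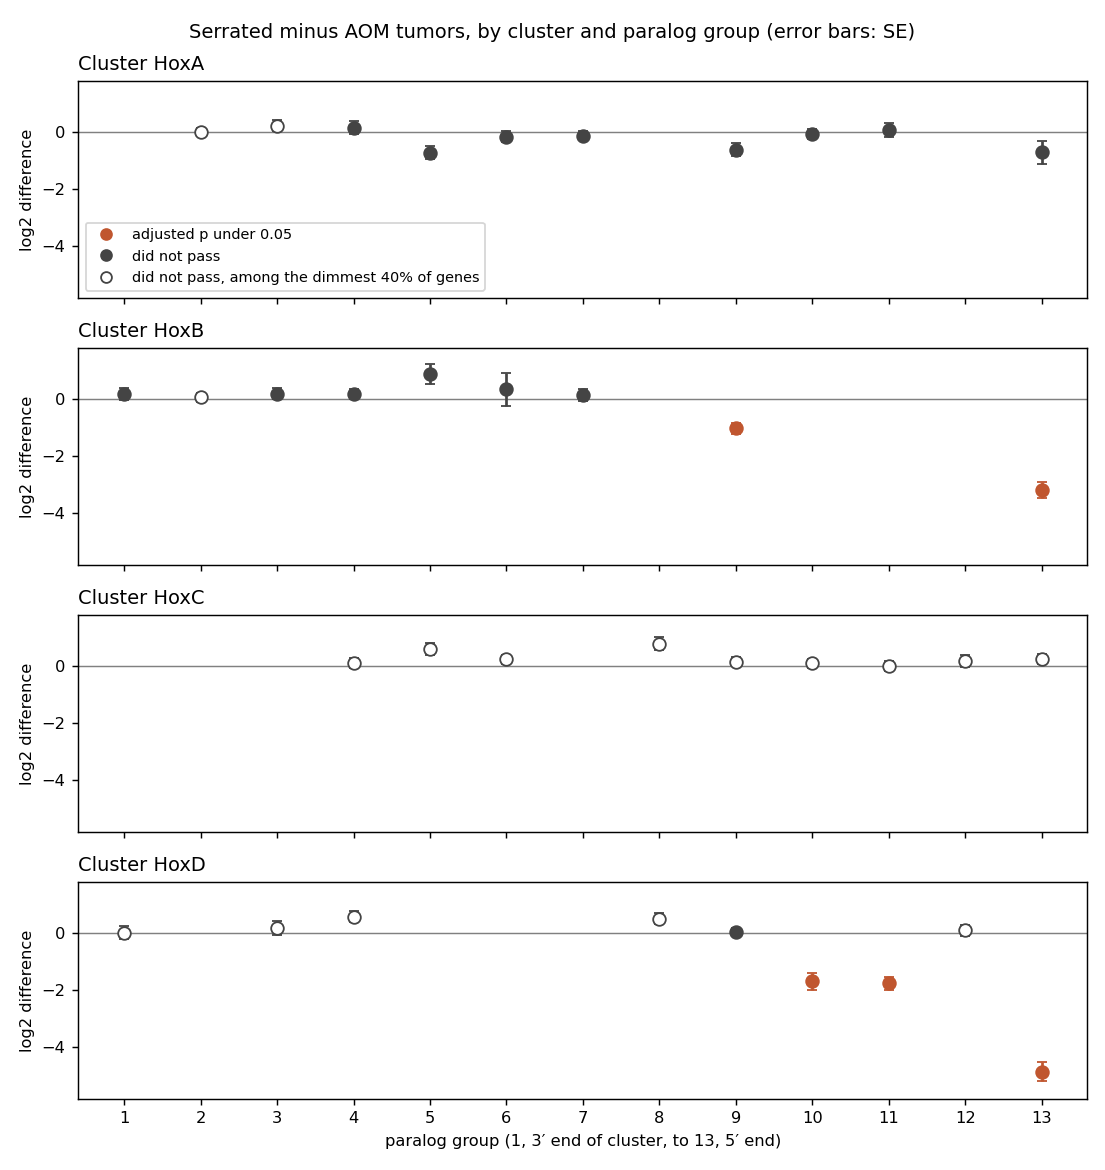
Log2 difference of serrated minus AOM tumors (y axis) against paralog group (x axis, 1 to 13) in each cluster, with SE as error bars. Filled orange points passed, dark points did not, and open points belong to the dimmest 40% of genes. The 5 genes that fell lie at paralog groups 9 to 13 of clusters B and D, with the greatest falls at group 13.

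By position, 2 of 4 genes of paralog group 13 fell, 0 of 2 of group 12, 1 of 3 of group 11, 1 of 3 of group 10 and 1 of 4 of group 9. The median difference was -1.93 in group 13, 0.14 in group 12, 0.01 in group 11, -0.06 in group 10 and -0.28 in group 9. The median was -0.02 over the 16 posterior genes, 0.22 over the 14 central and 0.18 over the 7 anterior genes, beside 0.04 over all genes tested. With arrays centred on their median gene the posterior median turned to 0.04, beside 0.10 over all genes. Of the 11 posterior genes that did not pass, 5 belong to cluster C, and without cluster C the posterior median was -0.69. By cluster the medians were -0.08 in A, 0.19 in B, 0.18 in C and 0.04 in D, and they kept their sign with quantile normalization and with centring. These medians describe the genes and were not tested.

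Whether genes of a paralog group or neighbours differed in their response was tested on the log ratio of 2 genes within each array, with 6 pairs chosen after the values were seen. The exact two-sided permutation test over 3 serrated and 5 AOM arrays has 0.0357 as its smallest possible p, and no pair passed after adjustment over the 6. Pairs at that smallest p stood at 0.0714 after adjustment, so not passing does not decide whether 2 genes differed. The log2 ratio of Hoxd13 to Hoxa13 was 2.54 ± 0.93 (SD, n = 5) in AOM and -1.54 ± 0.81 (SD, n = 3) in serrated tumors (exact permutation p = 0.0357, 0.0714 after adjustment). The ratios of Hoxd13 and Hoxd11 to Hoxd12 gave the same exact permutation p of 0.0357 each, 0.0714 after adjustment. They are not read further, since Hoxd12 was among the dimmest 40% of genes. The serrated values of Hoxd13 also lay below 3.58, so the size of its ratios in serrated tumors is uncertain. Hoxb13 against Hoxa13 and Hoxd13 against Hoxb13 gave an exact permutation p of 0.0714 each, 0.0857 after adjustment. Hoxb9 against Hoxa9 differed by -0.35 between serrated and AOM tumors (exact permutation p = 0.5), and the 3 serrated and 5 AOM arrays overlapped in this ratio.

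Against each AOM group alone, 5 Hox genes fell and 0 rose. These comparisons share the serrated arrays. Against K-rasG12D AOM tumors, where 3.99% of all genes fell and 2.46% rose, they were Hoxd13 (-4.82 ± 0.38, SE), Hoxb13 (-2.54 ± 0.31), Hoxd11 (-1.77 ± 0.25), Hoxd10 (-1.62 ± 0.34) and Hoxa5 (-1.29 ± 0.25), with limma adjusted p values of 0.000576, 0.00334, 0.00535, 0.0278 and 0.0212. Against LSL AOM tumors, where 3.4% of all genes fell and 2.31% rose, they were Hoxd13 (-4.87 ± 0.42), Hoxb13 (-3.80 ± 0.35), Hoxd11 (-1.73 ± 0.27), Hoxd10 (-1.74 ± 0.38) and Hoxb9 (-1.37 ± 0.24), with limma adjusted p values of 0.000874, 0.00114, 0.0111, 0.0340 and 0.0150. Hoxb9 differed by -0.65 ± 0.21 from the K-rasG12D group (limma adjusted p = 0.112), and Hoxa5 by -0.15 from the LSL group. Leaving out 1 array ended several of these calls. Hoxa5 against K-rasG12D tumors did not pass without any one of the K-rasG12D arrays (adjusted p of 0.0809, 0.0561 and 0.0645 without replicates 1, 2 and 3) or serrated replicate 2 (0.0647), nor with quantile normalization (0.0508). The call of Hoxd10 against K-rasG12D tumors ended on leaving out K-rasG12D replicate 1 (0.0936) or 3 (0.0832), serrated replicate 2 (0.105) or either LSL array (0.0507 each), and when only these groups were fitted (0.0507). Hoxd10 against LSL tumors did not pass without LSL replicate 1 (0.234) or 2 (0.151), serrated replicate 2 (0.104) or K-rasG12D replicate 3 (0.0608), or with only these groups fitted (0.0663). Hoxd11 against LSL tumors did not pass without LSL replicate 1 (0.0927) or 2 (0.0873), and Hoxb9 did not without LSL replicate 2 (0.133) or serrated replicate 2 (0.0599), or with only these groups fitted (0.0679). With 1 LSL array left, that array is assumed to vary like the other groups. Hoxd13 and Hoxb13 passed in both comparisons under all alternatives run.

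Between the AOM groups themselves, limma called 0 of the 37 genes, as it called 0 of all genes tested. At an unadjusted p under 0.05 there were 4 Hox genes, beside 8.36% of all genes. Hoxa5 stood at 6.36, 5.89 and 6.16 in K-rasG12D and 5.21 and 4.77 in LSL tumors, a difference of 1.14 ± 0.28 (SE, limma adjusted p = 0.293). Serrated tumors, at 5.15, 4.35 and 5.03, lay in the range of the LSL tumors or below it. Hoxb5 differed by 1.24 ± 0.44 (SE, limma adjusted p = 0.470) and was higher in K-rasG12D tumors. Hoxb13 and Hoxb9 were lower there, by -1.26 ± 0.35 (SE, limma adjusted p = 0.346) and -0.73 ± 0.24 (0.417). In these 4 genes the K-rasG12D and LSL arrays lay apart. Over the 37 genes every K-rasG12D array lay above both LSL arrays in 6 and below both in 5, beside 16.4% and 15.7% of all genes. Hoxd13 showed no such order, at a difference of -0.05 with a 95% interval from -1.01 to 0.91.

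Among the 5 AOM arrays, K-rasG12D replicate 2 was the lowest for 15 of the 37 Hox genes and LSL replicate 1 for 12, and the other arrays for 2, 3 and 5. The same count over all genes was not made, so these counts are not read as particular to Hox genes. Both arrays also had the widest spread over genes among the AOM arrays, an SD of 2.13 and 2.12 against 2.00 to 2.07. K-rasG12D replicate 2 was the lowest for Hoxd13, Hoxd11, Hoxd10 and Hoxb13, at 7.20, 5.32, 4.84 and 6.14, and the highest for Hoxa13 and Hoxa11, at 6.19 and 4.94. All 4 of its lower values still lay above the serrated range of the gene. In the heat map of all 37 genes, the rows of Hoxd13, Hoxd11, Hoxd10, Hoxb13 and Hoxb9 separate the groups and most other rows do not.

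**Figure D3:**
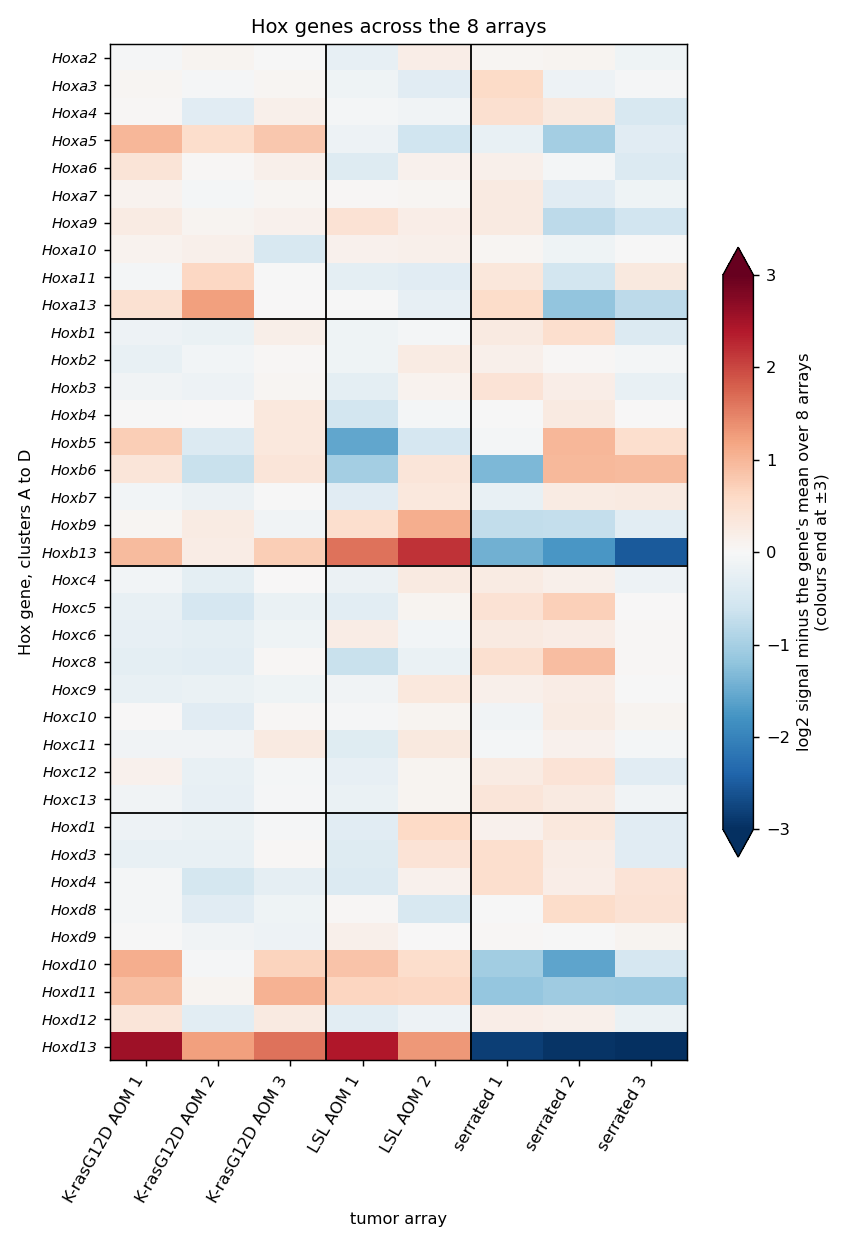
Log2 RMA signal of each of the 37 Hox genes (rows, by cluster and paralog group) on each of the 8 arrays (columns), minus the gene's mean over the arrays. Red is above and blue below that mean, and colours end at ±3. Hoxd13, Hoxd11, Hoxd10, Hoxb13 and Hoxb9 are blue on the 3 serrated arrays.

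Genes that act beside Hox genes were taken from lists fixed with earlier results of these data known. The counts of all lists stand beside 5.76% of all genes that fell and 3.62% that rose in serrated against AOM tumors. No list was tested as a set. Of 8 ParaHox and Evx genes, 1 rose and 2 fell, with a median difference of 0.11 beside 0.04 over all genes. Evx1 and Evx2 are homeobox genes at the 5′ ends of clusters A and D, next to Hoxa13 and Hoxd13. Evx1 stood at 4.77, 5.23 and 4.59 in K-rasG12D AOM, 4.56 and 5.16 in LSL AOM, and 3.80, 3.67 and 3.46 in serrated tumors, and fell by 1.22 ± 0.21 (SE, limma adjusted p = 0.00961). Evx2 ran from 5.03 to 5.21 in AOM tumors and stood at 4.66, 4.63 and 4.04 in serrated ones, and fell by 0.68 ± 0.18 (SE, limma adjusted p = 0.0457). Its call was lost under 10 of 16 alternatives, with adjusted p up to 0.140. Cdx2, the ParaHox factor that sets intestinal identity, stood at 5.08, 5.73 and 5.44, then 5.04 and 4.50, and then 8.26, 7.17 and 7.52, and rose by 2.56 ± 0.27 (SE, limma adjusted p = 0.00130). Cdx1, its close relative, overlapped between serrated and pooled AOM tumors and differed by 0.17 ± 0.19 (SE, limma adjusted p = 0.598). Its serrated arrays (6.10 to 6.61) lay above every K-rasG12D array (5.46 to 6.06) and below both LSL arrays (6.65 and 6.64).

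Of 10 measured TALE genes, the family of the Hox cofactors, 1 fell and 0 rose, with a median difference of 0.29. It was Tgif1, a corepressor of the family, which fell by 1.16 ± 0.20 (SE, limma adjusted p = 0.00906) and did not pass without serrated replicate 2 (adjusted p = 0.0504). Meis2, a direct Hox partner, stood at 6.48 and 5.42 on serrated replicates 2 and 3 but at 3.68 on replicate 1, among AOM values of 3.62 to 5.24, and did not pass (limma adjusted p = 0.239). Without serrated replicate 1 its difference was 1.98 (adjusted p = 0.0271). Of 22 Polycomb and trithorax genes, which keep Hox genes off or on, 1 fell and 0 rose, with a median difference of -0.22. Over all genes 5.76% fell and 3.62% rose, and 1 fall among 22 genes is near that share. Ezh2, the histone methyltransferase of Polycomb, fell by 1.12 ± 0.15 (SE, limma adjusted p = 0.00383), from 7.56 to 7.77 on the AOM arrays to 6.38, 6.48 and 6.81 on the serrated arrays.

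Of 15 genes flanking the clusters, 4 fell and 0 rose, namely Snx10 and Skap2 beyond the 3′ end of cluster A, Mtx2 beyond the 3′ end of cluster D and Calcoco1 near cluster C. Their differences were -1.45 ± 0.31, -0.73 ± 0.17, -0.89 ± 0.21 and -0.75 ± 0.20 (SE), with limma adjusted p values of 0.0244, 0.0282, 0.0329 and 0.0499. In Mtx2 the groups overlapped. The median difference of the flanking genes was -0.03, and 5.76% of all genes fell and 3.62% rose. The 4 passed under 11, 10, 9 and 4 of 16 alternatives. Of 8 noncoding genes of the clusters, among them Hottip and the genes of miR-10 and miR-196, 0 passed in limma, and Mir196a-2 had the smallest p, with a difference of 0.24 (adjusted p = 0.469) beside a median of 0.13.

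Of 16 transcription factors of gut regions, 2 rose and 2 fell, beside 3.62% and 5.76% of all genes. The median difference was 0.16. Gata4, a factor of stomach and proximal intestine, stood between 3.45 and 4.22 in AOM tumors and at 4.77, 6.15 and 6.80 in serrated ones, and rose by 2.01 ± 0.42 (SE, limma adjusted p = 0.0207). Isx, an intestinal homeobox factor, rose by 1.92 ± 0.45 (0.0310), although serrated replicate 1 at 4.65 overlapped the AOM range of 3.59 to 4.76. Tbx3 fell by 1.71 ± 0.28 (SE, limma adjusted p = 0.00826), and Foxl1, a factor of the mesenchyme beneath the epithelium, by 0.98 ± 0.19 (0.0145), although its K-rasG12D arrays (3.43 to 4.19) overlapped the serrated ones. Gata4, Isx and Foxl1 passed under 13, 11 and 13 of 16 alternatives, and Tbx3 under all 16.

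**Figure D4:**
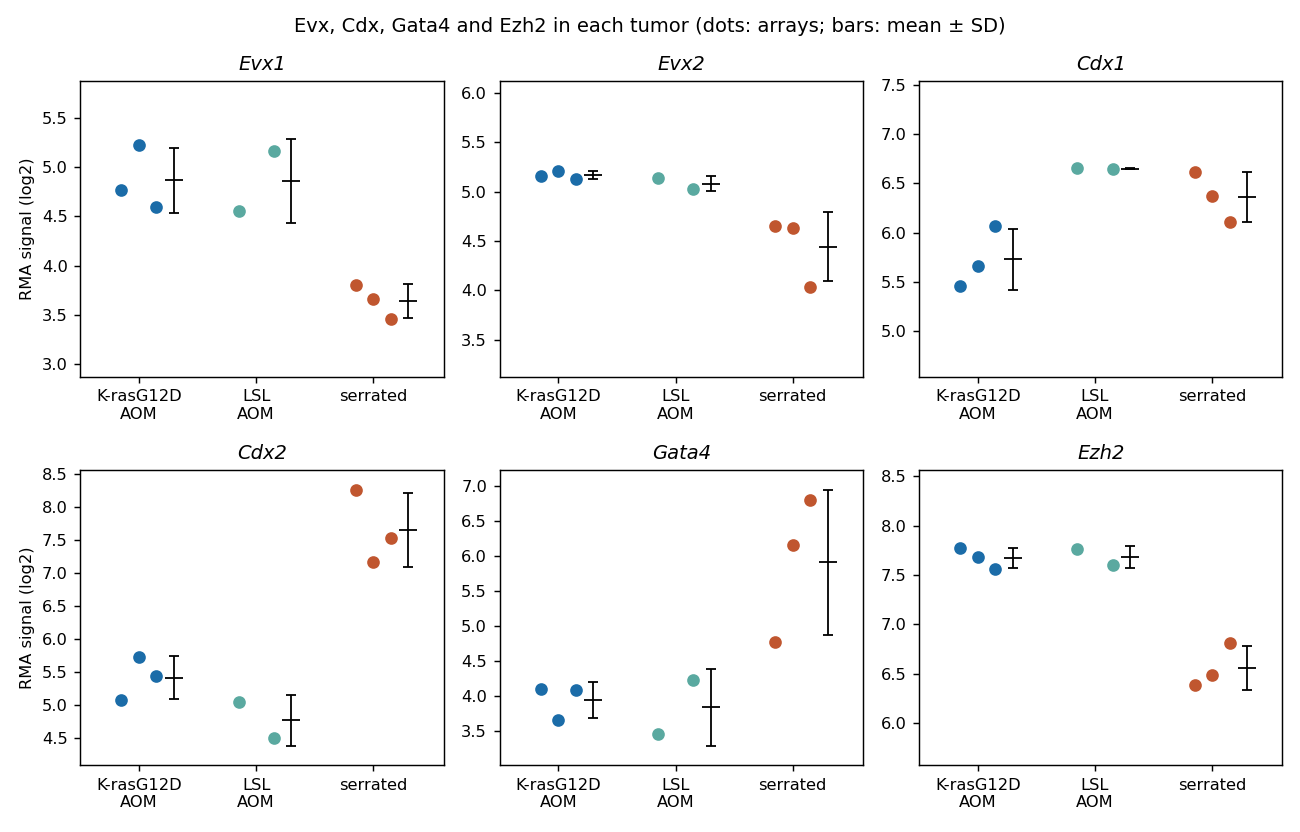
Log2 RMA signal (y axis, scaled separately in each panel) of Evx1, Evx2, Cdx1, Cdx2, Gata4 and Ezh2 in the 3 tumor groups (x axis). Dots are arrays and black bars give mean ± SD (n = 3, 2 and 3). Serrated dots lie below all AOM dots in Evx1, Evx2 and Ezh2, above them in Cdx2 and Gata4, and between the K-rasG12D and LSL dots in Cdx1.

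Some markers of other cell types passed between serrated and AOM tumors. In bulk tumors fewer cells of a type and less RNA per cell cannot be told apart. Epithelial markers were high on all arrays, with list means of 9.69 to 9.90 in serrated and 9.38 to 9.75 in AOM tumors, and 1 of 12 rose and 1 fell. Of 12 fibroblast markers, 3 fell and 0 rose, with list means of 5.73 to 6.6 in serrated and 6.42 to 7.37 in AOM tumors, and of 11 immune markers 4 fell (4.48 to 4.85 against 4.80 to 5.83). The list means of fibroblast and of immune markers thus overlapped between serrated and AOM arrays. Of 11 stomach markers, 5 rose (5.40 to 7.91 against 3.33 to 3.70), and of 11 colon epithelium markers, 7 rose (9.48 to 9.53 against 6.75 to 8.33). Of 11 smooth muscle markers 1 fell, and of 10 endothelial and 8 enteric neuron and glia markers 0 passed in limma. Over all genes 5.76% fell and 3.62% rose. The median differences were 0.13 for epithelial, -0.95 for fibroblast, -0.86 for immune, 3.64 for stomach and 1.37 for colon epithelium markers, and 0.26, -0.15 and -0.04 for smooth muscle, endothelial and neural markers. The part of cell makeup in the Hox differences was not tested.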

How the data were processed

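The deposited values are log2 signals made by the authors with GCOS and RMA, per the submitters' processing notes. Their versions and settings and the genome build are not given in the sources used here. Of 35557 probe sets, 21789 carried 1 gene symbol in a probe annotation table. Those with several symbols (1621) or no listed gene (12147) were left out. A gene with several probe sets was read from its brightest one on average over the 8 arrays, which left 19938 genes and no filter on dim ones.

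Group means were fitted with limma 3.58.1 in R 4.3.3 (5 residual degrees of freedom, 1 spread per gene shared by the groups), with Benjamini-Hochberg adjustment over the whole table and a threshold of 0.05. The fit was tested on simulated data. Alternatives were a filter on the dimmest 40% of genes, array weights, variance trend, robust prior, quantile normalization, median centring, the mean of a gene's probe sets, the mean of the 5 AOM arrays, fits of only the groups compared, and leaving out each array. Permutation tests used scipy 1.17.1.

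The Hox genes, the lists and the tests were chosen with earlier results of these data known. Values on every array were given for Hox genes that passed and for Hox genes of paralog groups 9 to 13. From lists, up to 4 genes that passed were named by smallest adjusted p, or the gene of smallest p where none passed; Cdx1 and Meis2, and Hoxb6, Hoxc5, Hoxd4, Hoxd8 and Hoxd12 where singled out, were chosen after their values were seen. Nothing in the labels ties arrays to separate mice, so p-values rest on the spread between samples, part of which may be technical. Precision is limited by the number of arrays.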

Additional observations from a re-analysis of the deposited data

How the results depend on the processing

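For serrated against all AOM tumors, Hoxd13, Hoxb13 and Hoxd11 passed under all 16 alternatives, and Hoxd10 and Hoxb9 under 14 each. The 5 falls against the AOM average were 8 with array weights and 3 to 7 when 1 array was left out (3 without serrated replicate 2), and the 0 rises were 4 with array weights, 1 with quantile normalization or median centring, and 0 to 2 without 1 array. Against K-rasG12D AOM tumors alone the 5 falls and 0 rises were 8 and 4 with array weights, and 3 to 7 and 0 to 2 without 1 array. Against LSL AOM tumors alone the 0 rises were 4 with array weights and 0 to 1 without 1 array. The 5 falls there were 3 when only these groups were fitted and 2 to 6 without 1 array. Between the AOM groups 0 genes passed either way under all alternatives run. Hoxa5 against LSL tumors, -0.15 as deposited, was -0.52 with array weights and turned to 0.035 with quantile normalization, and ran from -0.37 without LSL replicate 2 to 0.10 without serrated replicate 2, with 0.07 without LSL replicate 1. The median of posterior genes moved to -0.85 with only genes above the dimmest 40%, which removes all of cluster C. The causes of the other changes were not tested. The default array weights could not be fitted, since their estimate did not converge and put a weight of 25.6 on serrated replicate 2, and the gene-by-gene estimate used instead was chosen after seeing the data. It gave serrated replicates 1, 2 and 3 weights of 0.242, 3.16 and 0.380. No paired analysis was possible because the labels give no replicate numbers shared between groups.

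Signals below 3.58 on the log2 scale limit what can be seen of 17 of the 37 Hox genes, among them all 9 of cluster C.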
